A study of Mus musculus with 8 samples.

Results

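Ets1 peaks that M1 and M2 macrophages share and that lie inside genes were examined across 4325 regions. They were taken as the peaks of the M1 list that overlap an M2 peak by at least 1 bp, have a summit more than 1 kb from every gene start of the expression table, and have that summit between the start and the end of at least 1 gene. They made up 18.7% of the 23089 M1 peaks, and the M2 list held 22640 peaks. The 4325 regions overlapped 4237 distinct M2 peaks, since 175 of them share their M2 peak with another region.

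The samples were 4 groups of mouse bone marrow-derived macrophages (BMDMs). RNA was sequenced from Ets1 f/f * Lyz2-cre cells (knockout, 3 libraries) and from Ets1 f/f cells without the Cre (control, 3 libraries), neither of them polarized. Ets1 chromatin immunoprecipitation with sequencing (ChIP-seq) was done on wild type C57 cells after M1 polarization (1 library) and after M2 polarization (1 library). All marrow came from male mice aged 8 weeks and grew for 7 days in M-CSF at 10 ng/ml, the growth factor that drives marrow cells to become macrophages. Lyz2-cre deletes floxed DNA in the myeloid line, which also holds monocytes and neutrophils. The polarizing agents and the antibody are not named in the labels used here. Binding and expression were therefore measured in cells of different states and genotypes, and the comparison of M1 with M2 rests on 1 library each, so it has no test. The labels do not say that the RNA libraries came from separate animals. A p-value here sets the difference between groups against the spread among libraries of a group, and that spread may be technical.

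Ets1 belongs to the ETS family of transcription factors, which bind DNA around the core GGAA, and the bases beside the core set which family members bind best. PU.1, the product of Spi1, is the family member that shapes the macrophage lineage. Sites within genes mostly fall in introns, where they can act as enhancers of the host or of another gene, or as promoters of shorter transcripts. A peak's host gene is the gene it lies in, and is not known to be its target.

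The RNA libraries held between 16897873 and 20259175 reads assigned to genes, with 18980 to 20217 genes detected. Ets1 itself had normalized counts of 825, 755 and 645 in knockout cells, against 3641, 3337 and 2869 in control cells. It fell by 2.15 on the log2 scale (SE 0.11, limma adjusted p = 3.93e-07), and every knockout library lay below every control library. Macrophage markers were abundant in both groups, with a summed normalized count of 366280 to 381102 in knockout libraries and 282226 to 286177 in control libraries. Of 8 macrophage markers 2 rose and 1 fell. Markers of several other cells were lower in knockout libraries. Their summed counts were 7939 to 8366 against 15587 to 18815 in control libraries for 5 neutrophil markers, 3120.3 to 3809 against 9631 to 14562 for 5 stromal markers, and 1090.2 to 1270 against 2912 to 4838 for 5 megakaryocyte markers. Mast cell and basophil markers summed to 6.81 to 15.6 in knockout and 75.8 to 140 in control libraries, with 2 of the 5 at 0 in knockout cells. All 5 neutrophil and all 5 stromal markers, 4 of 5 megakaryocyte, 4 of 5 B cell and 3 of 5 mast cell and basophil markers fell. The 5 B cell markers summed to 597 to 609 in knockout and 758 to 964 in control libraries, the T and NK cell markers to 0.973 to 5.44 and 12.8 to 22.02, and the dendritic cell markers to 29.1 to 42.8 and 42.3 to 59.0. In such bulk samples, fewer cells of a type and less RNA per cell cannot be told apart.

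The sequences first shown belong to the regions with the highest fold enrichment, the authors' value of ChIP signal over background at a peak, among those whose summit falls just before a RefSeq start inside the host gene. Summits at or very near the start, and those far before it, were left out, and each gene is shown once. Each is read 5′ to 3′ on the strand of that start, 50 bases either side of the M1 summit in RefSeq sequence of GRCm38.p6, the assembly of mm10. Capitals mark the ETS core GGAA or its reverse complement TTCC, and GGGCGG, the core of the GC box bound by Sp and Klf factors, or its reverse complement CCGCCC.
Marf1 (chr16:14159379-14159479, minus strand): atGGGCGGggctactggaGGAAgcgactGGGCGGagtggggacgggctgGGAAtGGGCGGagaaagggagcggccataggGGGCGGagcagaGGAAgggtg
Gm37494 (chr7:39552641-39552741, plus strand): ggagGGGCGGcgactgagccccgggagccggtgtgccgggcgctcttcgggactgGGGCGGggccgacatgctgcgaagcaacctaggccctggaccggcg
Add3 (chr19:53142552-53142652, plus strand): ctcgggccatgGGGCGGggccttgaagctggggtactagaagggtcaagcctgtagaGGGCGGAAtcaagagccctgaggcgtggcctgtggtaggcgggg
Rangap1 (chr15:81730024-81730124, minus strand): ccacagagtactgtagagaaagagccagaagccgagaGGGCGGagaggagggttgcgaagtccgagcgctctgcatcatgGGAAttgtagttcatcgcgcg
Strada (chr11:106193646-106193746, minus strand): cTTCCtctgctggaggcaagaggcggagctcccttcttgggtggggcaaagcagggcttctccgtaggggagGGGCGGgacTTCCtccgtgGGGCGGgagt
Hint3 (chr10:30618383-30618483, minus strand): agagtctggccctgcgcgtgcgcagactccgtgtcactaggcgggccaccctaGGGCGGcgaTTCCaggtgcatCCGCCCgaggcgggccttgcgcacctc
Iffo2 (chr4:139574485-139574585, plus strand): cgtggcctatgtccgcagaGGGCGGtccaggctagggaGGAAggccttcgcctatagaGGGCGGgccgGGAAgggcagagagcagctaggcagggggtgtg
Srrm2 (chr17:23803043-23803143, plus strand): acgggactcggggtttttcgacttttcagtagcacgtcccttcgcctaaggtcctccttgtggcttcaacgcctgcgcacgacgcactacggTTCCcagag

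These 8 regions had M1 fold enrichments of 14.7 to 20.3. Marf1, an RNA-binding regulator of transcripts in germ cells, had 20.3 in M1 and 16.0 in M2, with its summit 155 bp from the internal start and 197 bp from the hairpin of Mir484. The region in Gm37494 lies at the start of Gm33989 and had 18.1 in M1 and 16.5 in M2. It was the only 1 of the 8 printed sequences without a GGAA. Add3, a membrane skeleton adducin, had 18.4 in M1 and 15.6 in M2. Rangap1, the activator of the Ran GTPase in nuclear transport, had 17.6 and 14.7, and Strada, a partner of the kinase LKB1, had 19.1 and 12.3. GGGCGG stood in 7 of the 8 printed sequences, the exception being that of Srrm2, a scaffold protein of the splicing machinery. None of the 8 held CCGGAA, the form of the core that Ets1 is known to bind well.

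A second set shows where CCGGAA does occur close to a summit. The 4 sequences below are, under the same limits, those of highest fold enrichment with a CCGGAA or TTCCGG within 50 bp of it, cut where the reference window or the start ends.
Snd1 (chr6:28480098-28480192, plus strand): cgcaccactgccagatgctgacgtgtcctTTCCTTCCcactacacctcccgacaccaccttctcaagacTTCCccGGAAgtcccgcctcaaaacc
Ppm1a (chr12:72761021-72761121, plus strand): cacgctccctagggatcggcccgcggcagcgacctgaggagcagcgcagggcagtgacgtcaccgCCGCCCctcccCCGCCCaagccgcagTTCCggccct
Snrpc (chr17:27839963-27840063, plus strand): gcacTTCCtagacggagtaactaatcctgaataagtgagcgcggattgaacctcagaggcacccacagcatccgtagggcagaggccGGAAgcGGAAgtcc
Zfp617 (chr8:71922730-71922825, plus strand): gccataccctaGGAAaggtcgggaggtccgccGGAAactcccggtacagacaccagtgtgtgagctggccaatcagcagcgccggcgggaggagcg

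Snd1, a nuclease-domain cofactor of transcription and RNA processing, had 13.1 in M1 and 13.0 in M2 at this region, 5.003 kb into a gene of 460.0 kb. Ppm1a, a protein phosphatase, had 10.5 in M1 and 12.1 in M2, and Snrpc, a subunit of the U1 splicing particle, had 11.4 in M1 and 10.8 in M2. The region of Zfp617, a zinc finger gene, had 8.74 in M1 and 9.73 in M2.

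Windows around RefSeq starts, each from 250 bases before to 50 after the start, held the summits of 340 of the regions, in 377 windows. GGGCGG on either strand was present in 70.3% of these windows, beside 76.9% of the 4561 windows with a shared promoter peak, 18.05% of 4577 windows at internal starts without a peak and 35.7% of all 32851 windows. CCGGAA was present in 24.4%, beside 35.6%, 6.51% and 14.9%. The bare core GGAA, which also lies within CCGGAA, was present in 95.8%, beside 95.4%, 96.3% and 96.0%, so it did not separate the windows.

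Base composition ran alongside these shares, and its part in them was not tested. The windows with a shared gene-body peak had a median GC content of 63.0% and 22 CpG dinucleotides, against 49.3% and 4 at internal starts without a peak. Other forms differed less between the windows. CAGGAA stood in 26.0% of the windows with such a peak, 22.6% of those with a shared promoter peak and 30.6% of all windows. GAGGAA stood in 28.6%, 24.7% and 28.3%, the AP-1 form TGANTCA in 6.10%, 3.88% and 7.81%, and the Runx form TGTGGT in 11.7%, 11.4% and 16.8%.

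GGGCGG was also the more frequent of both longer forms near the summit, as it was in the windows as a whole. It lay within 50 bp of the M1 summit in 155 of the 340 regions (45.6%), with a median distance of 34.5 bp where present. CCGGAA lay within 50 bp in 29 regions (8.53%), with a median distance of 80 bp. The density of GGAA was 6.41 matches per kb in the 20 bp around the summit and 9.43 to 16.6 per kb in the other 20 bp steps within 150 bp, so GGAA was not concentrated under the summits. GGGCGG was not centred on them either, at 7.22 per kb there and 3.78 to 10.2 per kb in the other steps. For these densities a region with its summit in several overlapping windows was counted once per window. No genome was used here for regions away from RefSeq starts.

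**Figure D1:**
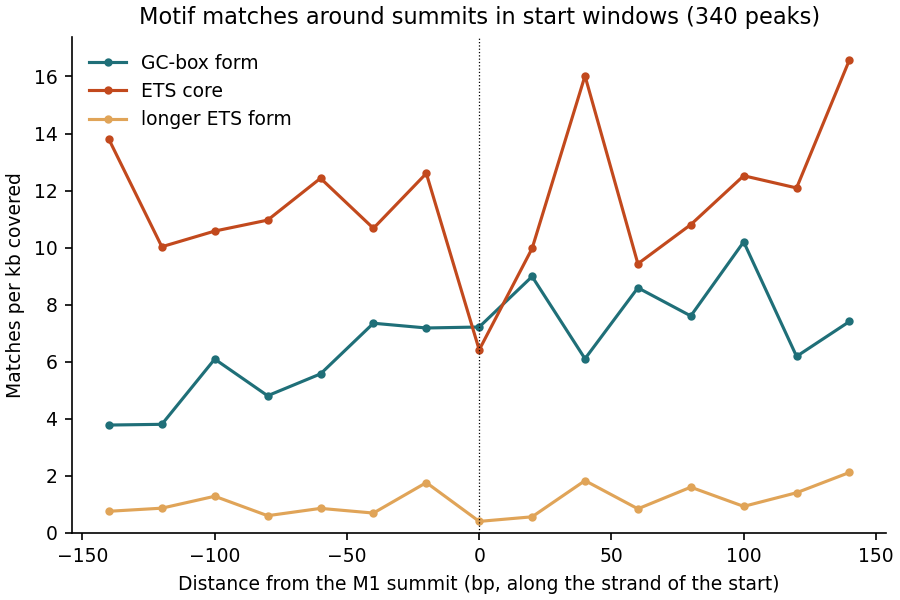
Density of motif matches, in matches per kb of sequence covered (vertical axis), by distance from the M1 summit in bp (horizontal axis, 20 bp steps), for 340 shared gene-body peaks whose summit lies in a RefSeq start window. A peak with its summit in several overlapping windows is counted once per window. The ETS core (GGAA) is lowest at the summit, at 6.41 per kb, while the GC-box form (GGGCGG) stands at 7.22 per kb there and the longer ETS form (CCGGAA) stays low throughout.

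The shared gene-body peaks were of similar height in both states and lower than promoter peaks. Median fold enrichment was 6.17 in M1 (quartiles 4.95 and 7.79) and 6.41 in M2 (5.07 and 8.11). Shared promoter peaks had medians of 8.05 and 8.12, and shared intergenic peaks had 6.19 and 6.49, close to those of the gene-body peaks. Gene-body peaks found in 1 list only were lower, at 4.53 in the M1 list and 4.69 in the M2 list. The classes were made from the calls themselves, so no test was applied between them.

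Shared gene-body peaks were also narrower than shared promoter peaks, with median widths of 352 bp in M1 and 464 bp in M2, against 527 bp and 663 bp. The median −log10 q was 7.29 in M1 and 9.21 in M2. The summits of the 2 lists lay a median of 63 bp apart, and 64.8% lay within 100 bp of each other. In 92.7% of regions the M2 peak covered at least 50% of the M1 peak.

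Few of these regions differed in height between the 2 libraries. The ratio of M1 to M2 fold enrichment had a median of 0.987 (quartiles 0.819 and 1.18), and 86.2% of regions were within 1.5-fold. A ratio of 2 or more was found in 15 regions in favour of M1 and in 40 in favour of M2. Across the 4325 regions, log2 fold enrichments in the 2 lists had a Pearson r of 0.676 and fold enrichments a Spearman rho of 0.621. These are descriptions across regions that share 2 libraries.

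**Figure D2:**
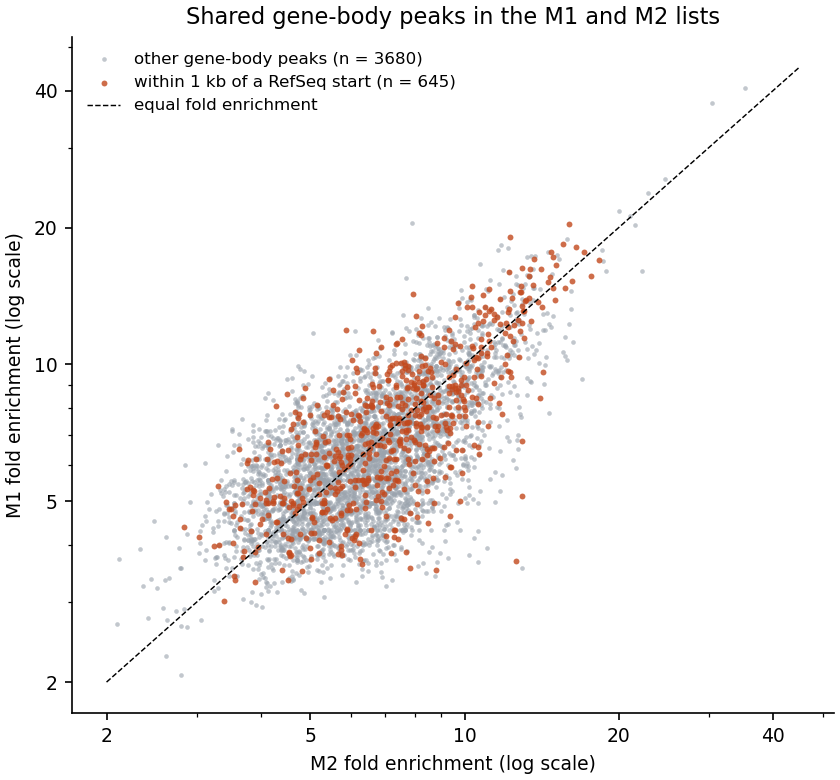
Fold enrichment of the 4325 shared gene-body peaks in M1 (vertical axis, log scale) and M2 (horizontal axis, log scale), 1 point per region. The 645 within 1 kb of a RefSeq start are in orange and the other 3680, including 113 on chromosome 18 that were not compared with RefSeq starts, are in grey. Most points lie near the dashed line of equal values, and the orange points reach higher on average, with medians of 7.16 in M1 and 7.16 in M2.

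The 8 regions of highest mean fold enrichment lay away from gene starts, whereas 21 of the highest 50 lay within 1 kb of a RefSeq start. The top value was in Atrnl1, an attractin-like membrane protein gene, at chr19:58113288-58113599, with 40.7 in M1 and 35.2 in M2. This region lay 96.2% of the way along a gene of 522 kb. Gm525 followed, at chr11:89081688-89082050, with 37.6 in M1 and 30.4 in M2. Its −log10 q values, 1383 in M1 and 831 in M2, were the highest of all the regions. Such extremes were not screened for artefact signal here.

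The other 6 of the highest 8 were in Cdk8, Dopey2, Slc45a1, Mdga2, Ppp1r9a and Fam45a. Cdk8, the kinase of the Mediator module, had 25.5 in M1 and 24.6 in M2 at chr5:146260991-146261355, 29.8 kb into the gene. Mdga2, a neuronal adhesion protein gene, had 20.3 in M1 and 21.5 in M2 at a summit 163 kb from its start. None of the 8 lay within 5 kb of a RefSeq start, the nearest being 5.64 kb away, and their median M1 width of 337.5 bp was below that of all the regions. Of their hosts, Gm525 and Slc45a1 were left out of the test for low counts. Atrnl1 averaged 668 ± 71.7 in knockout and 656 ± 80.8 in control cells (SD, n = 3 each, limma adjusted p = 0.891).

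The regions most unequal between the lists lay in genes of varied roles. Epm2a, the glycogen phosphatase laforin, had 20.5 in M1 and 7.89 in M2 at chr10:11352648-11353195. Bach2, a transcriptional repressor of lymphoid cells, had 6.01 in M1 and 2.85 in M2, and Fbxo28, a ubiquitin ligase subunit gene, had 8.66 and 4.13. Wdr7 had 11.7 in M1 and 5.07 in M2.

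Among those higher in the M2 list, some had wide M2 peaks with a summit far from the M1 summit. Nfe2l2, the oxidative stress regulator Nrf2, had 3.57 in M1 and 12.9 in M2 at chr2:75703529-75703739, where the M2 peak was 1684 bp wide and its summit lay 1015 bp from the M1 summit. The M1 summit was 1007 bp from the start of Nfe2l2. Ahcyl2 had 3.70 in M1 and 12.6 in M2, with summits 727 bp apart. Alpk2, a kinase gene, had 3.68 in M1 and 10.6 in M2, with summits 406 bp apart. Gm12992 had 3.94 and 11.1 with summits 57 bp apart, so here the same position was compared. The limit of 1 kb fell between Cyp4f18, whose region at 1004 bp had 5.07 in M1 and 5.67 in M2, and a peak at Gm11696 at 1000 bp with 6.84 in M1 and 6.25 in M2.

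The shared gene-body peaks leaned towards gene starts, although the rule had removed the first 1 kb. The median distance to the nearest start was 13.4 kb (quartiles 5.35 and 31.9 kb), against 19.99 kb for M1-only and 17.5 kb for M2-only gene-body peaks. Between 1 and 5 kb lay 1019 regions (23.6%), against 15.8% of M1-only and 16.9% of M2-only gene-body peaks. A further 1813 (41.9%) lay at 10 to 50 kb and 244 (5.64%) beyond 100 kb. With host genes cut into 10 equal stretches from start to end, each of the first 4 held 11.4% to 12.1% of the regions and each of the last 4 held 7.42% to 9.06%. Protein-coding genes were the hosts of 93.6%, and 197 regions lay in 2 genes.

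Some of these regions sit at starts that the expression table, with 1 start per gene, does not list. Of 4212 regions on chromosomes with RefSeq starts, 645 (15.3%) had their summit within 1 kb of a RefSeq start and 462 (10.97%) within 250 bp. In comparison, 160 of 3633 M1-only gene-body peaks (4.40%), 215 of 3711 M2-only gene-body peaks (5.79%) and 139 of 2981 shared intergenic peaks (4.66%) were as close. Table starts are not all among the RefSeq starts used. Of 7139 shared promoter peaks, which lie within 1 kb of a table start, 5871 (82.2%) lay within 1 kb of a RefSeq start. The 645 may therefore be an undercount. The start belonged to the host gene in 551 of the 645 and to another gene in 94, of which 74 were long noncoding RNA genes. Of the 551, 232 lay more than 10 kb from the host's start in the table.

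The share at RefSeq starts was larger among higher peaks. It was 10.5% for a mean fold enrichment under 5, 13.1% from 5 to 8, 22.9% from 8 to 12 and 38.3% at 12 and over. Regions at such starts had medians of 7.16 in both M1 and M2, against 6.01 and 6.27 for the other 3567. They were also wider, with medians of 477 bp in M1 and 618 bp in M2, against 339 bp and 446 bp. Regions of Iqgap1, Rbpj, Elf4 and Stab1, described with their hosts, are examples at such starts.

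**Figure D3:**
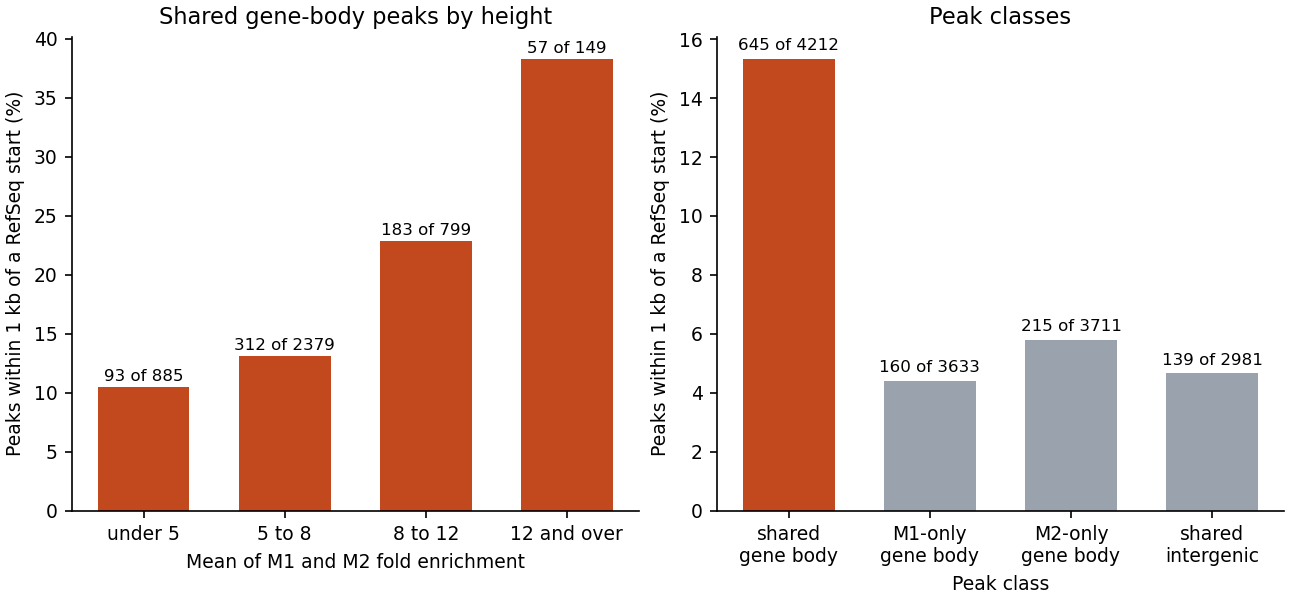
Share of peaks whose summit lies within 1 kb of a RefSeq start, in percent, for shared gene-body peaks by mean fold enrichment (left) and by peak class (right), with the number of peaks above each bar. The share is 10.5% below a fold of 5 and 38.3% at 12 and over, and it is 15.3% for shared gene-body peaks beside 4.40% to 5.79% for the 3 other classes. The RefSeq starts used do not hold every gene start.

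The regions lay in 3101 genes, of which 2245 held 1, 538 held 2 and 318 held 3 or more. Host genes were long, with a median span of 47.7 kb against 12.5 kb for all genes, and the authors' transcript length made up a median of 10.7% of that span. Among tested protein-coding genes, 5.52% of those up to 10 kb and 39.6% of those over 100 kb were hosts. Per kb of transcript, the median normalized count of tested hosts in control cells was 103, against 27.4 for all tested genes. By normalized count not divided by length, of 4 equal groups of protein-coding genes by mean normalized count, 32.4% were hosts in the highest, against 10.56% in the lowest. Exons and introns could not be told apart here.

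Fgfr2, a fibroblast growth factor receptor, was listed with 14 regions, more than any other gene. Its span in the expression table was 2961 kb, against 104 kb in RefSeq, and 0 of the 14 lay in the RefSeq span, while 11 lay in another gene as well. Sfi1, a centrosomal protein gene, held 12 within 50.7 kb, all low, at 2.29 to 4.17 in M1 and 2.41 to 3.77 in M2. Their median M1 −log10 q was nevertheless 9.32, against 7.29 for all the regions. No filter for artefact signal was applied here, so such clustered peaks may not all be binding sites. Abr and Elmo1 held 9 each, and Gm26561 also held 9, of which 6 lay in another gene too. In Elmo1, which acts in engulfment and migration, the 9 stretched over 348 kb and ranged from 3.98 to 8.35 in M1 and 4.03 to 12.7 in M2.

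The effect of losing Ets1 was compared between host genes and all genes. Of 3013 tested host genes, 977 (32.4%) passed an adjusted p of 0.05, beside 20.9% of all 20595 tested genes. Higher in knockout cells were 687 (22.8%), beside 10.4% of all genes, and lower were 290 (9.62%), beside 10.5%. The median log2 fold change of the hosts was 0.08, against −0.04 over all genes. With values scaled to total reads, which moved the median of all genes to −0.17, 413 hosts were higher (13.7%, beside 5.71% of all genes) and 502 lower (16.6%, beside 15.7%), so the share of host calls that were higher was 45.1% in place of 70.3%. The count of 977 became 478 without control library 2, 491 without knockout library 1, 452 without knockout library 2 and 564 without knockout library 3. In the same order these were 15.9%, 16.3%, 15.0% and 18.7% of tested hosts. The shares of all genes were 9.83%, 10.8%, 9.85% and 12.1%.

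The share of hosts called higher in knockout cells was larger with more of these peaks, a difference that was not tested. The share was 19.97% with 1, 26.2% with 2 and 36.5% with 3 or more, while the share lower was 9.59%, 9.62% and 9.84%. With scaling to total reads, the shares higher were 11.9%, 13.6% and 26.3% and the shares lower 16.9%, 16.2% and 15.5%. Expression level moved with this result: of 4 equal groups of genes by mean normalized count, the highest had 39.5% of hosts and 30.8% of all genes higher, while in the 2 lowest groups the hosts' shares were 0.361% and 2.13%, beside 0.466% and 2.58% of all genes. Within the highest group the share higher was 36.8%, 39.7% and 52.2% for hosts of 1, 2 and 3 or more peaks, and 27.3% for genes that were no host. Gene span also moved with it, at 43.1, 62.4 and 114 kb in median for these 3 groups and 23.8 kb for the genes that were no host. The part of level and length in the result was not tested. Without knockout library 2 the numbers higher were 187, 52 and 57 for 1, 2 and 3 or more peaks, in place of 433, 139 and 115. They were 192, 60 and 59 without knockout library 1, 245, 70 and 79 without knockout library 3, and 201, 60 and 69 without control library 2. The numbers lower, 208, 51 and 31, were 106, 29 and 13 without control library 2, 130, 33 and 17 without knockout library 1, 114, 30 and 12 without knockout library 2, and 121, 34 and 15 without knockout library 3. In the same order of fits, 10.97%, 10.3%, 9.81% and 13.1% of all hosts were higher and 4.92%, 5.96%, 5.17% and 5.64% lower. Of all tested genes 4.65%, 4.51%, 4.19% and 5.51% were higher and 5.18%, 6.26%, 5.66% and 6.57% lower. These shares also stand beside the counts of groups and lists below.

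Among hosts that also carried a shared promoter peak, calls were mostly higher. Of 1430 such hosts 30.2% were higher and 6.64% lower, against 16.1% and 12.3% of 1583 hosts without one. Expression level differed too, with median normalized counts in control cells of 1084 with and 253 without a promoter peak. The part of level in these shares was not tested. Scaled to total reads, the shares were 17.96% higher and 14.3% lower with a promoter peak, against 9.84% and 18.7% without. The number higher was 432 with and 255 without a promoter peak, and it was 199 and 131 without control library 2, 191 and 120 without knockout library 1, 182 and 114 without knockout library 2, and 246 and 148 without knockout library 3. The number lower, 95 with and 195 without a promoter peak, was 38 and 110, 51 and 129, 41 and 115, and 43 and 127 without these 4 libraries in the same order. Among genes that hosted no shared gene-body peak, 13.4% were higher with a shared promoter peak and 4.82% without. Their median normalized counts in control cells were 413 and 8.30. Hosts with a region at an internal RefSeq start of their own had 115 of 554 higher (20.8%) and 60 lower (10.8%), close to all hosts. Genes that held only M1-only or M2-only gene-body peaks had 444 of 2955 higher (15.0%) and 407 lower (13.8%). Per kb of transcript, their median normalized count in control cells was 32.6, against 103 for hosts of shared gene-body peaks.

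**Figure D4:**
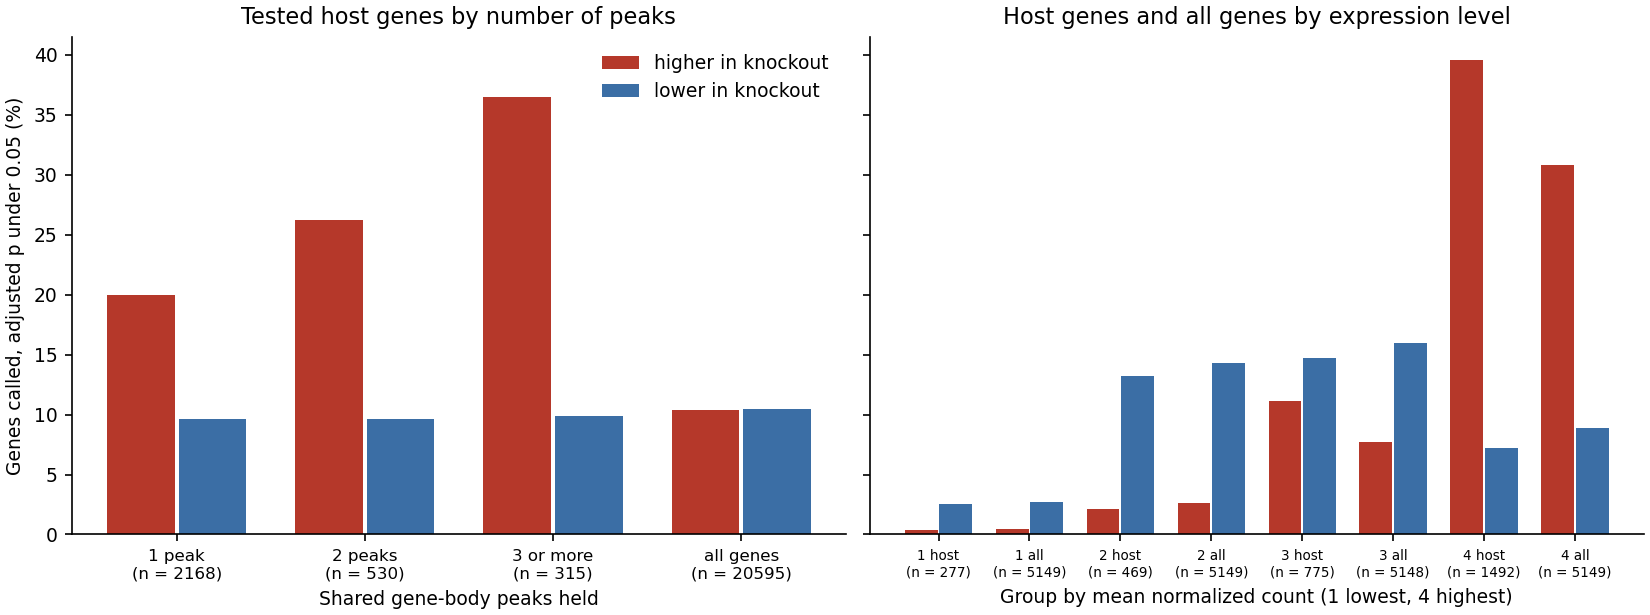
Share of tested genes called higher (red) or lower (blue) in knockout cells at an adjusted p under 0.05, in percent, by number of shared gene-body peaks (left) and by 4 equal groups of mean normalized count, hosts beside all genes (right). The share higher is 19.97%, 26.2% and 36.5% for hosts of 1, 2 and 3 or more peaks beside 10.4% for all genes, and the share higher among hosts exceeds that of all genes in the 2 highest groups of level and not in the 2 lowest.

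The largest rises among hosts were in genes of very different levels. Fat3, a giant cadherin with 5 regions over a span of 591 kb, had 171, 162 and 107 in knockout cells, against 36.1, 32.4 and 11.3 in control cells. It rose by 2.54 on the log2 scale (SE 0.37, limma adjusted p = 0.000535), and the groups did not overlap. Its highest region, at chr9:16215380-16215825, had 11.2 in M1 and 12.4 in M2 and lay 286 kb from the start. Cacna1a, a calcium channel subunit, had 217, 181 and 190.0 in knockout cells, against 55.5, 54.1 and 41.3 in control cells (log2 fold change 1.95, SE 0.18, limma adjusted p = 1.83e-05). Its single region lay at the far end of the gene, 99.7% of the way along, with 12.6 in M1 and 9.38 in M2.

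Slc13a3, a transporter of dicarboxylates such as succinate, was the most abundant of these hosts. It had 184649.5, 176485 and 176797 in knockout cells, against 73248, 65042 and 50093 in control cells. It rose by 1.53 on the log2 scale (SE 0.13, limma adjusted p = 1.15e-05), and its region also lay at the far end, 99.7% along. The uncharacterised gene 2900026A02Rik averaged 1435 ± 18.1 in knockout and 386 ± 113 in control cells (log2 fold change 1.93). Adam23, a cell adhesion gene, averaged 218 ± 57.6 and 66.2 ± 1.39, and Tmc3, a transmembrane channel-like gene, 311 ± 13.3 and 103 ± 11.8 (SD, n = 3 each). In all 6 of these genes the 3 knockout libraries lay above the 3 control libraries.

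Several hosts with the largest falls are best known from other cell lineages than macrophages. Itga2b, the platelet integrin, had 28.3, 22.4 and 24.6 in knockout cells, against 173, 183 and 205 in control cells. It fell by 2.85 on the log2 scale (SE 0.20, limma adjusted p = 2.29e-06), beside summed megakaryocyte markers, which include it, of 1090.2 to 1270 in knockout and 2912 to 4838 in control libraries. Receptors of platelet-derived growth factor, known from mesenchymal cells, were also among them. Pdgfra fell by 2.52, to 102 ± 18.1 in knockout cells, against 588 ± 92.6 in control cells, and Pdgfrb fell by 2.19, to 84.0 ± 12.6, against 398 ± 129. The 5 stromal markers, of which Pdgfrb is 1, all fell. Il1rl1, the IL-33 receptor of mast cells and other type 2 cells, had 7.62, 13.6 and 14.5 in knockout cells, against 72.2, 36.4 and 89.3 in control cells, and 3 of 5 mast cell and basophil markers fell. The part of these cells in the falls was not tested.

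Dclk1, a microtubule-binding kinase, fell by 2.48, to 27.0 ± 6.11 in knockout cells, against 157 ± 41.7 in control cells. Each of these 5 genes held 1 region, with M1 fold enrichments of 5.93 to 8.66. Ets1 held 3, at chr9:32652312-32652522, chr9:32695832-32696140 and chr9:32709822-32710026. They had 4.26, 7.45 and 10.5 in M1 and 5.91, 7.43 and 8.85 in M2, and lay 16.2, 59.8 and 73.7 kb from the start of Ets1.

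**Figure D5:**
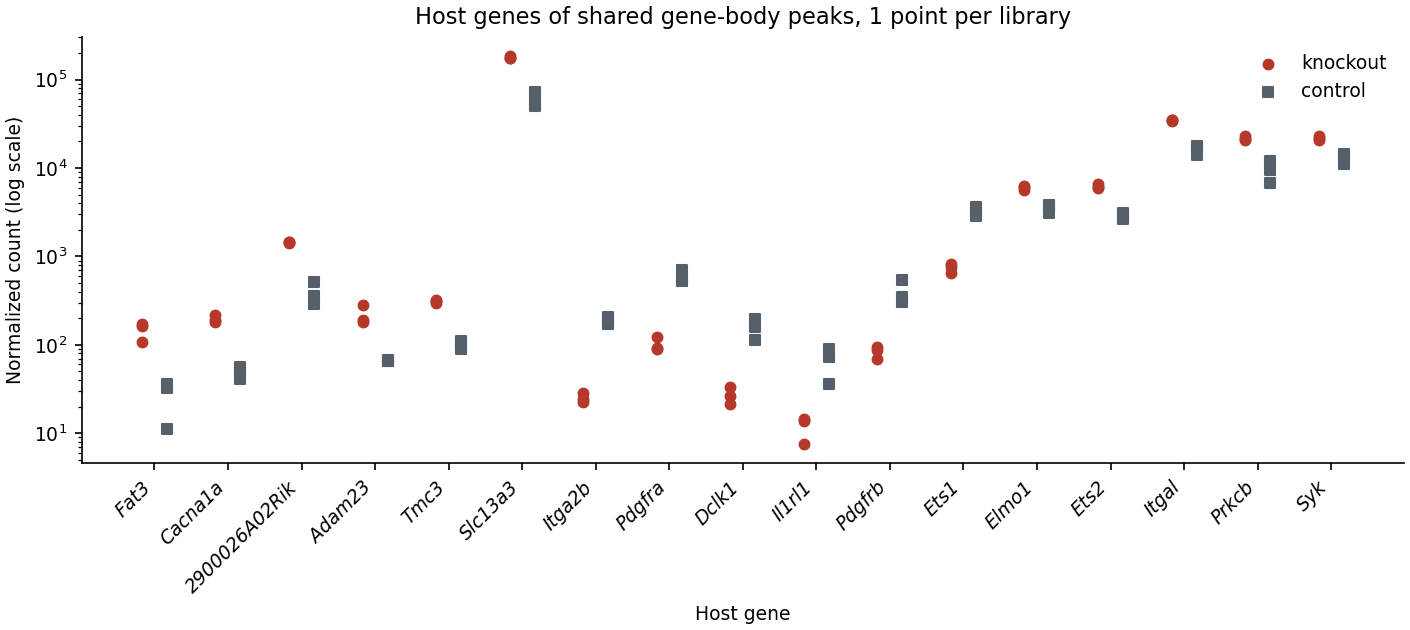
Normalized counts (vertical axis, log scale) of named host genes, with 1 point for each of the 3 knockout (red circles) and 3 control (grey squares) libraries. The 6 hosts with the largest rises stand at left, the 6 with the largest falls after them and 5 further hosts at right, and in each the 3 knockout values lie apart from the 3 control values.

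Regulators of the actin cytoskeleton, which shape motility and phagocytosis, held these regions more than any other list examined. Of 49 tested genes 38 (77.6%) were hosts, beside 18.9% of all tested protein-coding genes, and their median span was 114 kb against 23.4 kb. Of the 38 hosts 21 rose, 2 fell and 15 did not pass, with a median log2 fold change of 0.27. Of all hosts 22.8% were higher and 9.62% lower, and of hosts in the highest group of expression level 39.5% were higher. Scaled to total reads, 16 rose and 5 fell. The number that rose was 10 without control library 2, and 9, 9 and 13 without knockout libraries 1, 2 and 3. Of all hosts 10.97%, 10.3%, 9.81% and 13.1% were higher in these 4 fits. The number that fell was 0 without control library 2, 1 without control library 1, knockout library 1 or knockout library 3, and 4 without control library 3.

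Elmo1 had 5608, 6097 and 6216 in knockout cells, against 3794, 3696 and 3144 in control cells. It rose by 0.76 on the log2 scale (SE 0.09, limma adjusted p = 8.48e-05) with no overlap between groups. Lcp1, the leukocyte actin bundler plastin, held 3 regions and averaged 47411 ± 851 in knockout and 36471 ± 5179 in control cells (log2 fold change 0.39, limma adjusted p = 0.0212). Prex1, an activator of Rac, held 3 and averaged 22268 ± 240.0 and 16786 ± 1923 (log2 fold change 0.41, limma adjusted p = 0.00698).

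Iqgap1, a scaffold that links Rac and Cdc42 to actin, held 6 regions. The highest, at chr7:80802804-80803651, had 13.8 in M1 and 15.0 in M2, 22.7 kb into the gene and 56 bp from a RefSeq start. Iqgap1 averaged 24252 ± 1221 in knockout and 17222 ± 3228 in control cells (log2 fold change 0.51, limma adjusted p = 0.00976). The calls of Lcp1, Prex1 and Iqgap1 were lost without control library 2 (limma adjusted p = 0.102, 0.0585 and 0.0653), without knockout library 1 (0.106, 0.0530 and 0.0780) and without knockout library 2 (0.119, 0.0594 and 0.0702), and that of Lcp1 also without knockout library 3 (0.0850).

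Kinases and phosphatases of immunoreceptor signalling, which carry signals from Fc and related receptors, followed. Of 40 tested genes 15 rose and 9 fell. Of the 40, 24 were hosts, and 12 of these rose, 3 fell and 9 did not pass. Of all hosts 22.8% were higher and 9.62% lower, and of hosts in the highest group of expression level 39.5% were higher. For the 24 hosts the scaling to total reads gave 9 that rose and 6 that fell. Only 1 of them fell without control library 2, knockout library 2 or knockout library 3. Prkcb, protein kinase C beta, had 23063, 21544 and 20725 in knockout cells, against 12169.5, 9577 and 6736 in control cells. It rose by 1.24 on the log2 scale (SE 0.16, limma adjusted p = 0.00022) without overlap. Its 3 regions had 6.72, 11.9 and 6.45 in M1 and 8.82, 10.6 and 5.33 in M2, and the highest, at chr7:122328017-122328269, lay 39.4 kb into the gene.

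Syk, the tyrosine kinase recruited by these receptors, had 22879.8, 22083 and 20599 in knockout cells, against 14551, 13764 and 11138 in control cells. It rose by 0.74 (SE 0.10, limma adjusted p = 0.000332), again without overlap. The highest of its 4 regions, at chr13:52636277-52636725, had 12.03 in M1 and 10.4 in M2, 53.3 kb into the gene. Sirpa, the inhibitory receptor for CD47 and the most abundant host of the list, averaged 43204 ± 1791 in knockout and 36511 ± 3337 in control cells (log2 fold change 0.25, limma adjusted p = 0.0812). Pik3ap1, an adaptor of PI3-kinase, held 4 regions and averaged 22154 ± 677 in knockout and 14701 ± 2349 in control cells (log2 fold change 0.60, limma adjusted p = 0.00205).

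Of 30 tested integrins and adhesion genes, which attach the cells to each other and to matrix, 17 were hosts. Of these 10 rose, 1 fell and 6 did not pass, while over all 30 tested genes 14 rose and 4 fell. Of all hosts 22.8% were higher and 9.62% lower, and of hosts in the highest group of expression level 39.5% were higher. For the 17 hosts the scaling to total reads gave 7 that rose and 3 that fell. Of the 17, 6 rose without knockout library 1 or 2, and 2 fell without control library 3. Itgal, the alpha chain of LFA-1, had 34306, 34706 and 34594 in knockout cells, against 17718, 16814 and 14168 in control cells. It rose by 1.10 (SE 0.09, limma adjusted p = 1.05e-05) and the groups lay far apart. Its region, at chr7:127297166-127297423, had 6.81 in M1 and 5.89 in M2 and lay 1.10 kb from the start, just past the limit.

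Itgb2, the beta chain that pairs with it, held 4 regions and averaged 25029 ± 519 in knockout and 18745 ± 806 in control cells (log2 fold change 0.42, limma adjusted p = 0.00257). Tln1, talin, which activates integrins, averaged 54049 ± 2489.7 and 32246 ± 7182 (log2 fold change 0.77, limma adjusted p = 0.0019). Emilin2, a matrix glycoprotein gene, averaged 13779.9 ± 366 and 8576 ± 696 (log2 fold change 0.69, limma adjusted p = 0.000101). Its 4 regions also lay in Gm26561.

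Pattern recognition and NF-kB signalling had 16 hosts among 42 tested genes. Of the hosts 9 rose, 3 fell and 4 did not pass, while over all 42 genes 15 rose and 8 fell. Of all hosts 22.8% were higher and 9.62% lower, and of hosts in the highest group of expression level 39.5% were higher. For the 16 hosts total-read scaling gave 5 that rose and 4 that fell, and edgeR called 7 and 4. The number that rose was 5 without control library 2, 4 without knockout library 2 and 5 without knockout library 3. Only 1 fell in each of these fits and without control library 3 or knockout library 1. Nfkbiz, the nuclear inhibitor-like factor IkB-zeta, had 13847, 14104 and 14197 in knockout cells, against 8795, 9201 and 8648 in control cells (log2 fold change 0.66, SE 0.07, limma adjusted p = 5.21e-05). Tnip1, which restrains NF-kB with A20, held 3 regions and averaged 5062 ± 124 in knockout and 3454 ± 169.9 in control cells (log2 fold change 0.55, limma adjusted p = 0.000219). In both genes every knockout library lay above every control library. Irak3, an inhibitory member of the IRAK family, averaged 6147 ± 118 in knockout and 4917 ± 542 in control cells (log2 fold change 0.33, limma adjusted p = 0.0172), and Tlr2, a receptor for bacterial lipoproteins, averaged 4468 ± 231 and 3615 ± 19.5 (log2 fold change 0.30, limma adjusted p = 0.00964). Both calls were lost on total-read scaling (limma adjusted p = 0.0736 for Irak3 and 0.0953 for Tlr2) and without control library 2 (0.0772 and 0.0616), knockout library 2 (0.0963 and 0.0748) or knockout library 3 (0.0678 and 0.0631), and that of Irak3 also without knockout library 1 (0.0905).

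The ETS family itself had 10 hosts among 21 tested genes. Of the hosts 4 rose, 1 fell and 5 did not pass, while over all 21 genes 9 rose and 3 fell. Of all hosts 22.8% were higher and 9.62% lower, and of hosts in the highest group of expression level 39.5% were higher. The ETS host that fell is Ets1. Ets2, its closest relative, had 6551, 6141 and 6012 in knockout cells, against 3132, 3035 and 2623 in control cells. It rose by 1.09 (SE 0.08, limma adjusted p = 4.34e-06), with no overlap between groups, and its region at chr16:95707985-95708938 had 8.03 in M1 and 11.7 in M2, 6.42 kb into a gene of 18.98 kb. Elf4 held 2 regions, the higher with 7.72 in M1 and 9.004 in M2 and 1 bp from an internal RefSeq start, and averaged 4646 ± 105 in knockout and 3358 ± 482 in control cells (log2 fold change 0.48, limma adjusted p = 0.00448). Etv6, a repressor of the family, averaged 2353 ± 48.6 and 1934 ± 254 (log2 fold change 0.29, limma adjusted p = 0.0434). Its call was lost on total-read scaling (limma adjusted p = 0.197), by edgeR (0.0538) and in the fits without control library 2 or 3 or any 1 knockout library (0.0918 to 0.162). Spi1 held 1 low region, at 3.23 in M1 and 3.30 in M2, and averaged 7948 ± 218 and 7876 ± 1027 (log2 fold change 0.02, limma adjusted p = 0.896). On total-read scaling 2 of the 10 rose and 2 fell, and 2 rose without control library 2 or any 1 of the knockout libraries.

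Macrophage transcription factors, a list that also holds Spi1, were split. Of 50 tested genes 26 were hosts, with 8 that rose (30.8%), 7 that fell (26.9%) and 11 that did not pass, beside 22.8% higher and 9.62% lower of all hosts and 39.5% higher among hosts in the highest group of expression level. Those that fell numbered 3 without control library 2 or knockout library 1 and 4 without knockout library 2 or 3, and 5 rose without knockout library 2. Bach1, a repressor of haem and antioxidant genes, averaged 6643 ± 96.7 in knockout and 4996 ± 299.5 in control cells (log2 fold change 0.41, limma adjusted p = 0.00196). Rbpj, the DNA-binding factor of Notch signalling, held 5 regions, the highest at chr5:53490655-53491326 with 14.6 in M1 and 9.83 in M2, and another 14 bp from an internal RefSeq start. It averaged 8458 ± 446 in knockout and 7254.5 ± 858 in control cells (log2 fold change 0.23, limma adjusted p = 0.0984).

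Cytokine receptors and their JAK, STAT and SOCS partners had more falls than rises, with 17 hosts among 40 tested genes, of which 2 rose, 6 fell and 9 did not pass, beside 22.8% higher and 9.62% lower of all hosts. The median log2 fold change of the 17 was −0.04. On total-read scaling 1 rose and 7 fell, and edgeR called 1 and 6. Of these hosts 3 fell without control library 2 or knockout library 1 and 2 without knockout library 2 or 3, while 1 rose in each of these 4 fits and 4 without control library 1. Csf1r, the M-CSF receptor, averaged 36103 ± 338 in knockout and 45888 ± 3282 in control cells (log2 fold change −0.34, limma adjusted p = 0.0149). Its 2 regions, 2.41 and 2.87 kb from the start, had 4.34 and 4.33 in M1 and shared 1 M2 peak of 6.96. The call of Csf1r was lost without control library 2 (limma adjusted p = 0.0930) and without knockout library 1 (0.0844), 2 (0.0898) or 3 (0.0778). Tnfrsf1b, a TNF receptor, averaged 28751 ± 2449 in knockout and 23266 ± 2783 in control cells (log2 fold change 0.31, limma adjusted p = 0.0498), a call lost without control library 2 or 3 or any 1 knockout library (0.0852 to 0.231), on total-read scaling (0.163), by edgeR (0.0536), with a pseudocount of 0.5 (0.0517) and with no filter on low values (0.0532). Il4ra, the IL-4 receptor chain, and Jak1, a kinase of many cytokine receptors, had log2 fold changes of 0.22 and 0.02 and did not pass (limma adjusted p = 0.0817 and 0.892).

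In each of the remaining lists fewer hosts passed the test in number, though not always as a share. The test was passed by 32.4% of all hosts (22.8% higher, 9.62% lower) and 20.9% of all tested genes. Classical activation (3 of 6 hosts higher) and lipid handling (33.3% higher) were not below the share of all hosts. Lysosomal hosts had 7.69% higher and 15.4% lower, MAP kinase hosts 23.1% higher, and alternative activation hosts 12.5% in each direction. Lysosomal genes had 13 hosts among 30 tested, with 1 that rose and 2 that fell. Of the 13 hosts 3 rose without control library 1, none fell without control library 2 and 1 fell without any 1 knockout library. Lipid handling had 9 among 26, with 3 that rose and none that fell, or 2 and 1 when scaled to total reads. MAP kinase and ERK feedback genes had 13 hosts among 31, with 3 that rose and none that fell, but 1 that rose and 4 that fell when scaled to total reads, and 2 and 3 by edgeR. The number that rose was 1 for the MAP kinase list without control library 2 or any 1 knockout library, while 1 of its hosts fell without control library 1 or 3. For lipid handling it was 1 without control library 2, knockout library 1 or knockout library 2 and 5 without control library 1. Genes of alternative (M2) activation had 8 among 25, with 1 that rose and 1 that fell, or none and 2 when scaled to total reads. Of the 8 hosts none rose without control library 2 or any 1 knockout library, 2 rose without control library 1 and 3 fell without control library 3. Of 28 genes of classical (M1) activation 6 were hosts, 3 of which rose and none fell, while total-read scaling gave 1 and 1. The number that rose was 1 without knockout library 2 or 3, and 1 fell without control library 3. Acod1, which makes itaconate, was 1 of those that rose, at 2446 ± 187 in knockout and 1514 ± 62.6 in control cells (log2 fold change 0.69, limma adjusted p = 9.8e-05), and its region had 6.45 in M1 and 5.44 in M2. Stab1, a scavenger receptor of the M2 list, held a region 83 bp from an internal RefSeq start, with 8.15 in M1 and 6.40 in M2, and averaged 28997.6 ± 348 in knockout and 34212 ± 5755 in control cells (log2 fold change −0.23, limma adjusted p = 0.171).

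Hosts shown above for their sequence or height had mixed values. Snd1 had 6464, 6231 and 6245 in knockout cells, against 4444, 3849 and 3779 in control cells, a rise of 0.65 (SE 0.08, limma adjusted p = 0.000138) without overlap. Wdr7 averaged 2862 ± 122 in knockout and 1892 ± 339 in control cells (log2 fold change 0.61, limma adjusted p = 0.00245). Cyp4f18, a leukotriene-metabolising cytochrome, averaged 666 ± 22.1 and 435 ± 15.2 (log2 fold change 0.61, limma adjusted p = 0.000453). Of the hosts with the most regions, Fgfr2 was near 0 in knockout cells at 3.15 ± 1.81, against 38.2 ± 2.04 in control cells, while its 14 regions lay outside its RefSeq span. Elmo1 rose as given above. Abr averaged 9760.4 ± 359 in knockout and 7440 ± 712 in control cells (log2 fold change 0.40, limma adjusted p = 0.00581, or 0.0517 without knockout library 1). Sfi1 averaged 303 ± 38.9 and 416 ± 15.7 (log2 fold change −0.46, limma adjusted p = 0.0124), with adjusted p of 0.0687 without control library 2, 0.0672 without knockout library 1 and 0.0717 without knockout library 3. Gm26561 was at 1.01 ± 0.975 in knockout and 2.505 ± 1.501 in control cells (limma adjusted p = 0.417).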

How the data were processed

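The RNA values are the authors' deposited signal values, counts divided by a size factor per library. Per the submitters' processing notes HISAT2 2.1.0, Bowtie2 2.2.3 and HTSeq 0.6.0 were used for RNA and BWA, SAMtools, MACS2, deepTools and DESeq2 for ChIP, with mm10. Dividing by the smallest step gave whole reads (100% of values within 0.001 of a whole number). The deposited peak lists give fold enrichment as a ratio over background and significance as −log10 q, and 1 library stands behind each. The control used for peak calling is not given in the sources used here.

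From these, limma 3.58.1 in R 4.3.3 was fitted with a mean-dependent prior on log2(value + 1) for genes averaging 1 or more among knockout or among control libraries, 3 knockout against 3 control libraries, with Benjamini-Hochberg adjustment over all 20595 genes and a threshold of 0.05. Log2 fold changes are on that scale and understate the change of low genes. edgeR 4.0.16 and DESeq2 1.42.0 on the recovered reads, other pseudocounts and filters, scaling to total reads and each library left out were alternatives. SD and SE describe 3 libraries. A gene is a host if a summit lies between its start and end in the expression table. Where several M2 peaks overlapped an M1 peak, the one with the largest overlap was its partner. RefSeq starts and their windows are of GRCm38.p6 and do not cover chromosome 18. Median distances of RefSeq starts to table starts were 15 bp over 13322 genes in both. No genome of the build was used, so motifs were counted only in RefSeq start windows, and the planned sequences around other summits are not shown.

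The scripts were tested on simulated data. The regions, the gene lists and the named genes were chosen with earlier results of these data known. Named regions are the 8 of highest mean fold enrichment, the 4 most unequal in each direction, the 5 genes with most regions and those nearest the 1 kb limit. Named hosts are the 6 largest rises and falls with a mean of at least 50, and up to 4 hosts of highest mean per list. The search for GGGCGG and the choice of printed sequences were added after the data were seen.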

Additional observations from a re-analysis of the deposited data

How the results depend on the processing

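The number of called hosts moved with single libraries and with the threshold on peaks, and its split by direction with scaling. Scaled to total reads, 1186 of all genes were higher and 3253 lower, and 413 hosts were higher and 502 lower. Over the 6 fits without 1 library each, calls numbered 2029 to 5716 for all genes (873 to 2976 higher, 1070 to 2740 lower) and 452 to 1289 for hosts (296 to 923 higher, 148 to 366 lower), and the cause was not tested. Control libraries differed more among themselves than knockout libraries. The chi-square of reads per degree of freedom was 10.6 to 34.1 between control and 2.99 to 5.07 between knockout libraries. It was highest between control libraries 1 and 3. The part of this spread in the rises was not tested. As shares of tested genes, calls were 9.83% to 27.9% of all genes and 15.0% to 43.0% of hosts. Peaks with −log10 q of at least 10 in both lists left 1169 regions, with median fold enrichments of 8.95 in M1 and 8.80 in M2. Their called hosts numbered 349, with 250 higher and 99 lower. These were 33.5% of their tested hosts, beside 32.4% for hosts of all the regions and 20.9% of all genes. Summits within 100 bp left 2803 regions with medians of 6.51 in M1 and 6.68 in M2, and an overlap of at least 50% gave medians of 6.26 and 6.55. Gene bounds that RefSeq also gives, an alternative chosen after seeing the data, left 4046 regions and 935 called hosts (32.8% of those tested). edgeR called 994 hosts (627 higher, 367 lower) and DESeq2 992 (699 higher, 293 lower). By edgeR these were 38.1% of hosts, beside 31.1% of all genes, and by DESeq2 32.0%, beside 17.9%. Of 91 named genes, 53 kept their side of the threshold in every setting run and none that passed changed direction.

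The labels do not say whether replicate numbers pair knockout with control libraries. Over all tested genes, deviations from the group means of same-numbered libraries correlated at 0.02, 0.02 and 0.03. Each gene weighs the same there, low counts included, so this cannot exclude a pairing. With the replicate number as a block, 5374 genes (2652 higher, 2722 lower) and 1195 hosts (823 higher, 372 lower) were called. These were 26.1% of all genes and 39.7% of hosts. Depth was 16897873 to 20259175 reads, and no value between M1 and M2 has a replicate.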
